A study of Mus musculus with 7 samples.

Results

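The genes described here are 7 CXC chemokines, Cxcl1, Cxcl2, Cxcl3, Cxcl5, Cxcl12, Cxcl13 and Cxcl14, among 19938 genes measured on Affymetrix arrays of macrophages sorted from mouse colon. They were chosen by name, as the probe sets that carry 1 of these symbols alone, and each of the 7 had 1 probe set. Arrays of 4 groups were compared, each from the lamina propria of the colon in C57BL/6 animals 6 weeks old. WT_resident (3 arrays) holds cells labelled resident macrophages from wild type mice that carry GFP in place of 1 Cx3cr1 allele (Cx3cr1gfp/+). Il10ra_mKO (2 arrays) holds cells with the same sort label from CX3CR1cre:IL10Raflox/flox mice, in which Cre made from Cx3cr1 cuts Il10ra in cells that have used that promoter. WT_CX3CR1hi and Il10_KO (1 array each) hold cells labelled CX3CR1hi, the first from Cx3cr1gfp/+ mice and the second from IL10-/- CX3CR1gfp/+ mice. No array carries Cre without the floxed receptor, so the Cx3cr1 allele and the loss of the receptor cannot be told apart. The labels do not say how many animals gave each array, so the errors given here measure the spread between arrays, which may be technical.

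CXC chemokines are small secreted proteins named for a pair of cysteines with 1 residue between them. Cxcl1, Cxcl2, Cxcl3 and Cxcl5 carry the motif Glu-Leu-Arg before these cysteines, bind the receptor Cxcr2 and draw neutrophils out of the blood. Cxcl12 and Cxcl13 are homeostatic: Cxcl12 acts on Cxcr4 to hold leukocytes and progenitors in tissues, and Cxcl13 acts on Cxcr5 to place B cells in follicles. Cxcl14 is made constitutively in many epithelia, and its receptor is less settled. In macrophages the neutrophil-attracting genes are classic targets of NF-kB after Toll-like receptor or IL-1 signals, and IL-10 is a known brake on that programme.

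None of the 7 chemokines differed between mutant and control macrophages past the test. For Il10ra_mKO against WT_resident by limma, 0 of the 7 rose and 0 fell at an adjusted p under 0.05, where 0.00502% of all genes passed in either direction (1 gene, Fcrls, which fell and was named after its values were seen). At an unadjusted p under 0.05, 0 of the 7 were higher and 0 lower, beside 4.06% and 3.86% of all genes. In 0 of the 7 did both Il10ra_mKO arrays lie above all 3 WT_resident arrays (8.92% of all genes), and in 1 of the 7, Cxcl12, both lay below (8.50% of all genes). Counts near these shares say nothing particular about the chemokines. The count of 1 whose groups did not overlap became 3 without WT_resident array 1, 2 without Il10ra_mKO array 1 and 4 without Il10ra_mKO array 2. With these smaller groups the share of all genes without overlap was 24.9%, 49.2% and 42.1%, beside 17.4% with all arrays. The estimates were 0.19 to 0.49 on the log2 scale for Cxcl1, Cxcl2, Cxcl3, Cxcl5 and Cxcl13, and -0.20 and -0.02 for Cxcl12 and Cxcl14, with a median of 0.00 over all genes.

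The targeted receptor was read in every array. Il10ra, the ligand-binding chain of the IL-10 receptor, was at log2 10.56, 10.76 and 11.12 in WT_resident and at 8.05 and 7.04 in Il10ra_mKO (difference -3.27 ± 0.38, adjusted p = 0.243), below all controls. Il10 itself was at 11.04 in WT_CX3CR1hi and 10.75 in Il10_KO, and since the place of its probes relative to the deletion is not given in the sources, that value does not check the label. All 12 resident macrophage markers, Adgre1, Cd68 and Mertk among them, were above the brightness limit used below. Their mean level was 11.02 to 11.19 in WT_resident, 10.85 and 11.08 in Il10ra_mKO, and 11.24 and 11.40 in WT_CX3CR1hi and Il10_KO. The list did not move as one, with 6 higher and 6 lower in Il10ra_mKO. Both mutant arrays lay above all controls for 3 of them (8.92% of all genes) and below for 4 (8.50%). All 12 epithelial markers were also above that limit, with a mean level of 10.50 to 10.90 in WT_resident and of 10.59 and 8.87 in Il10ra_mKO, so epithelial transcripts were present in sorted RNA and lowest in Il10ra_mKO array 2. The part of epithelial RNA in the chemokine values was not tested. The arrays measure RNA in bulk, so fewer cells of a type and less RNA per cell cannot be told apart. Many deposited values are exactly equal between resident arrays. Of the 35399 rows 49.2% hold at least 2 identical values among the 5 resident arrays, while the 2 CX3CR1hi arrays share 0 identical values with each other and at most 2 with any resident array. Of the chemokines, Cxcl1, Cxcl5 and Cxcl14 hold such values, and whether they stand for equal RNA was not tested.

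For 3 of the neutrophil-attracting genes the DNA in front of them is shown, because Cxcl1, Cxcl2 and Cxcl3 were all at their lowest in the same resident array (WT_resident array 2) and share the stretch of letters marked below. The windows run from 250 bases before the start site to 50 after it, 5′ to 3′, from RefSeq on build GRCm38.p6. Capitals mark matches on either strand to the NF-kB consensus, and these matches hold the core GGAATTTCC.
Cxcl1, chr5:90890995-90891294, plus strand: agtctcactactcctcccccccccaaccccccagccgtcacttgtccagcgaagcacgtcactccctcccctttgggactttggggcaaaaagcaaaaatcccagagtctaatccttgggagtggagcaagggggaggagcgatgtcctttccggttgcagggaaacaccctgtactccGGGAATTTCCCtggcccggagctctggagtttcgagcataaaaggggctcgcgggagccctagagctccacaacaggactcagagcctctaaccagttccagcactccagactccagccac
Cxcl2, chr5:90903649-90903948, plus strand: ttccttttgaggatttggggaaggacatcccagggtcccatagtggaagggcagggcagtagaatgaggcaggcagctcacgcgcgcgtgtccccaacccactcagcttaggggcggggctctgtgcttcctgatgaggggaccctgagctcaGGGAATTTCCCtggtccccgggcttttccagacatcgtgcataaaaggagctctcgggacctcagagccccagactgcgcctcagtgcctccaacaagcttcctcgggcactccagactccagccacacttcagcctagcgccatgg
Cxcl3, chr5:90785851-90786150, plus strand: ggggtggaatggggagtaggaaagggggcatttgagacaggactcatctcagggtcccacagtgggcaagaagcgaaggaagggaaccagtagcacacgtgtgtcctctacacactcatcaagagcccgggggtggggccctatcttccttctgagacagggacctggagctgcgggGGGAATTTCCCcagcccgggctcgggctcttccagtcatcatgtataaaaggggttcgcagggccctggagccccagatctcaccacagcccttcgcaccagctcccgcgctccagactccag

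Each of these 3 windows held the same stretch of letters, at -71 to -61 from the start site in Cxcl1, -97 to -87 in Cxcl2 and -73 to -63 in Cxcl3, where both strands match the consensus and the matches overlap. The NF-kB consensus was found in 4.51% of 32851 windows of the same length in the table, and the core GGAATTTCC (GGAAATTCC on the other strand) in 0.317%. The windows of Cxcl12, Cxcl13 and Cxcl14 held no match to either. The letters TATAAA, searched on both strands and found in 13.6% of windows, were present in Cxcl3 at -30 to -25 and in Cxcl13 at -46 to -41. Of the 7 chemokines 6 had a window in the table, and Cxcl5 did not. The 3 windows printed were picked for sharing the stretch, so its presence in each follows from that choice. Its bearing on the shared lowest array was not tested. A match is a description of the letters and shows neither binding nor a cause.

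Cxcl2, also called MIP-2, is a neutrophil attractant that macrophages release quickly after bacterial contact. Its level was 12.30, 11.63 and 12.67 in WT_resident and 12.27 and 12.65 in Il10ra_mKO. The highest and the lowest of the 5 arrays were both controls, so the groups overlapped. The difference was 0.26 ± 0.37 (log2, SE, limma, adjusted p = 0.809), with a 95% interval from -0.79 to 1.31. That interval spans both a fall and a rise of more than 1.5-fold, so the arrays could not show a change of that size. The direction rested on WT_resident array 2, without which the difference was -0.023, and it was 0.07 without Il10ra_mKO array 2. In the CX3CR1hi arrays Cxcl2 was at 12.33 in WT and 12.34 in Il10_KO, a difference of 0.02 ± 0.57. Neither of these arrays has a replicate.

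Cxcl1, also called KC, uses the same receptor and is made by epithelium and stroma as well as by macrophages. Its level was 9.17, 8.18 and 8.96 in WT_resident and 8.96 in both Il10ra_mKO arrays. WT_resident array 3 and both Il10ra_mKO arrays hold the identical value, and the mutant arrays lay inside the control range. The difference was 0.19 ± 0.35 (adjusted p = 0.858), with an interval from -0.79 to 1.16. It rested on WT_resident array 2, the lowest array, and was -0.11 without it. In the CX3CR1hi arrays Cxcl1 was at 9.42 in WT and 10.07 in Il10_KO, 1.57-fold higher. It was the 1 chemokine of the 7 at least 1.5-fold higher there, beside 2.70% of all genes, and 0 of the 7 were at least 1.5-fold lower, beside 4.42%. The difference of 0.65 ± 0.54 did not pass (limma, adjusted p = 0.575, with both single arrays assumed to vary as the other groups do).

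Cxcl3 and Cxcl5, the other neutrophil attractants of the set, were dim. Cxcl3 was at 6.19, 5.92 and 6.06 in WT_resident and at 6.61 and 6.08 in Il10ra_mKO. Only Il10ra_mKO array 1 lay above all control arrays. The difference was 0.29 ± 0.20 (adjusted p = 0.678), which became 0.02 when Il10ra_mKO array 1 was left out and 0.56 when array 2 was. Cxcl5, which epithelial cells make in response to IL-17, was at 4.95, 4.88 and 4.73 in WT_resident and at 5.34 and 4.88 in Il10ra_mKO, where array 2 and WT_resident array 2 hold the identical value. Again only Il10ra_mKO array 1 stood above the controls, and the difference of 0.26 ± 0.17 (adjusted p = 0.678) was 0.03 without it and 0.49 without Il10ra_mKO array 2. Cxcl5 lay under the brightness limit, which a gene passes when 2 or more arrays exceed log2 5.86, the midpoint of the deposited values. In the CX3CR1hi arrays Cxcl3 was at 5.21 in WT and 5.65 in Il10_KO, and Cxcl5 at 4.60 and 4.71.

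Neutrophil markers were highest in the mutant array in which Cxcl3 and Cxcl5 were highest. The mean of the 11 measured neutrophil markers was 5.56 to 5.62 in WT_resident, 6.18 in Il10ra_mKO array 1 and 5.80 in array 2. Of these markers 10 were higher and 1 lower in Il10ra_mKO, and 7 had both mutant arrays above all controls (8.92% of all genes). Only 2 of the 11 were past the brightness limit. Ly6g, a granulocyte surface protein, was at 6.95, 7.75 and 8.17 in WT_resident and at 9.70 and 8.10 in Il10ra_mKO. In WT_CX3CR1hi and Il10_KO it was also high, at 9.36 and 9.52, while the mean of the neutrophil markers was 5.51 and 5.70. The calprotectin subunits S100a8 and S100a9 lay under the limit: S100a8 was at 4.96 to 5.11 in WT_resident and at 5.92 and 5.28 in Il10ra_mKO, and S100a9 at 5.38 to 5.44 and at 5.97 and 5.58. The part of neutrophil RNA in the Cxcl3 and Cxcl5 values was not tested.

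**Figure D1:**
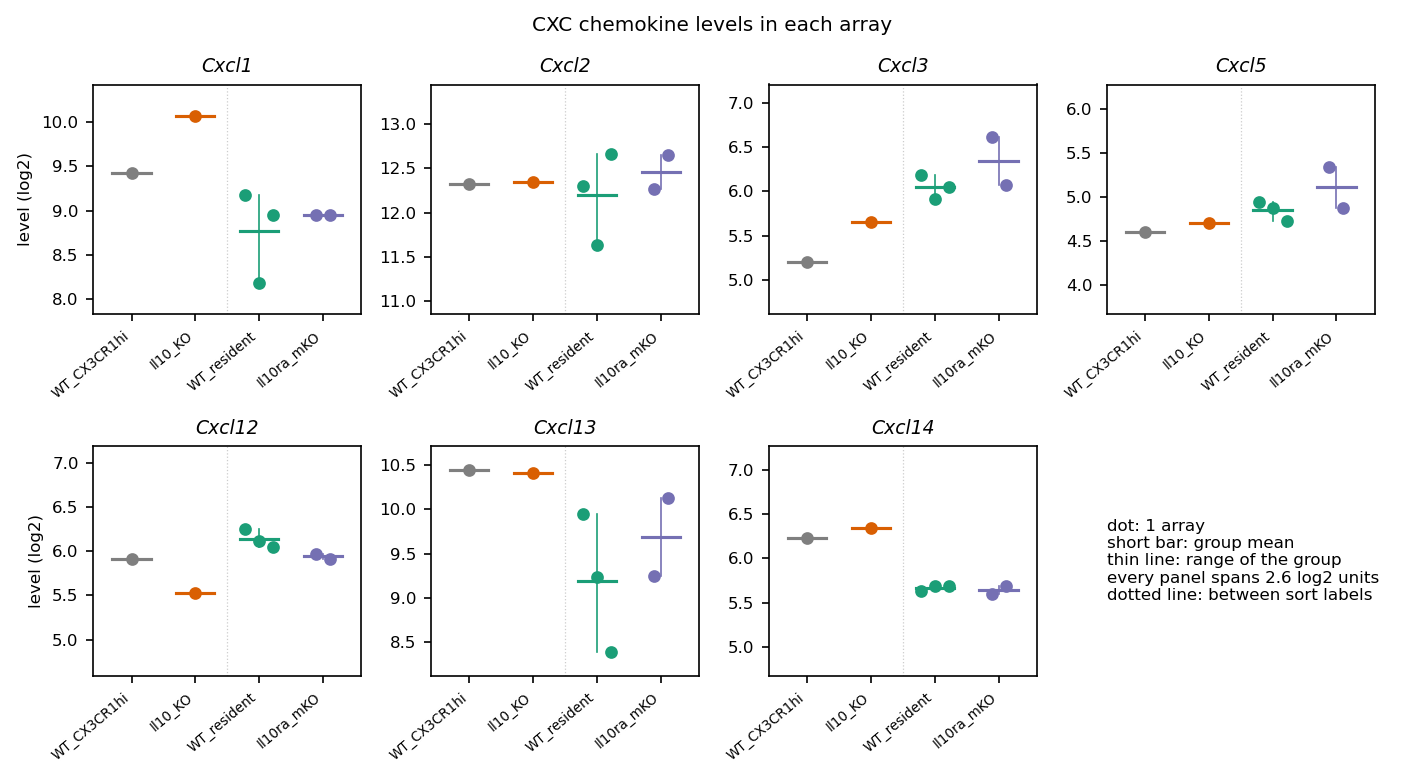
Level of each chemokine (log2, vertical axis) in each of the 7 arrays by group (horizontal axis), with dots for arrays, short bars for group means and thin lines for the range. The Il10ra_mKO arrays overlap WT_resident for every gene but Cxcl12, where they sit at 5.97 and 5.92 under the lowest control at 6.05.

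Cxcl12, also called SDF-1, is mainly a product of fibroblasts and endothelium. Its level was 6.26, 6.12 and 6.05 in WT_resident and 5.97 and 5.92 in Il10ra_mKO. Both mutant arrays lay just under the lowest control, and the whole range of the resident arrays was 0.34. The difference was -0.20 ± 0.07 (adjusted p = 0.653, interval -0.41 to 0.01). It kept its sign under all 16 alternatives, between -0.25 and -0.14, without passing in any. Alternatives that changed only the filter, the prior or the rows per gene could not move it, since Cxcl12 has 1 probe set. In the CX3CR1hi arrays Cxcl12 was at 5.91 in WT and 5.53 in Il10_KO, a difference of -0.38 ± 0.11 (adjusted p = 0.174). That error comes from the spread of the resident arrays alone, and it was 0.15 with median centring, 0.14 with quantile normalization and 0.18 among genes without tied values. An exact permutation test of 2 against 3 arrays cannot go below a two-sided p of 0.1 or 0.2, depending on how both directions are counted.

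Fibroblast and muscle markers were lower in the same mutant arrays. Of 12 measured, 11 were lower and 1 higher in Il10ra_mKO, and 8 had both mutant arrays below all controls (8.50% of all genes). Their mean level was 6.87 to 7.33 in WT_resident, 6.44 and 6.39 in Il10ra_mKO, 6.92 in WT_CX3CR1hi and 6.29 in Il10_KO. The median difference of the list was -0.78, beside 0.00 over all genes, and it was -0.61 in the CX3CR1hi arrays. Endothelial markers were lower as well, 7 of 8 in Il10ra_mKO, with a mean level of 6.53 to 6.79 in WT_resident and of 6.37 and 6.18 in Il10ra_mKO. The matrix proteoglycan gene Dcn was at 10.63 to 11.39 in WT_resident and at 9.26 and 9.68 in Il10ra_mKO. The part of these cells in the Cxcl12 values was not tested.

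Cxcl13 varied most between arrays. This B cell attractant, made by follicular stroma and also by some macrophages, was at 9.95, 9.24 and 8.39 in WT_resident and at 9.24 and 10.13 in Il10ra_mKO. The resident arrays spread over 1.74 log2 units, and the lowest was a control. The difference was 0.49 ± 0.59 (adjusted p = 0.784), with an interval from -1.19 to 2.17. The sample titles number the resident arrays in 2 runs, the first with WT_resident arrays 1 and 2 and Il10ra_mKO array 1, the second with WT_resident array 3 and Il10ra_mKO array 2. Within the first run the mutant array was at -0.35 relative to the mean of its controls, and within the second it was 1.74 above its control, so the direction was not the same in both. For the other chemokines the same values, first run before second, were 0.28 and 0.00 for Cxcl1, 0.31 and -0.02 for Cxcl2, 0.56 and 0.02 for Cxcl3, 0.43 and 0.15 for Cxcl5, -0.22 and -0.13 for Cxcl12, and -0.06 and 0.00 for Cxcl14. With the runs as a block in the fit none of the 7 passed (limma, adjusted p of 0.394 for Cxcl5 to 0.896 for Cxcl1). Without Il10ra_mKO array 2 the difference was 0.05, and without Il10ra_mKO array 1 it was 0.94. Without WT_resident array 3 it was 0.09. Cxcl13 was at 10.45 in WT_CX3CR1hi and 10.41 in Il10_KO.

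The cells that Cxcl13 attracts and the stroma that makes it were read through marker lists. B and plasma cell markers had a mean level of 7.53 to 7.72 in WT_resident, 7.90 in Il10ra_mKO array 1 and 8.54 in array 2, the mutant array with the higher Cxcl13. In WT_CX3CR1hi and Il10_KO, where Cxcl13 was at 10.45 and 10.41, that mean was lower, at 7.23 and 7.31. Of the 7 B and plasma cell markers measured, 5 were higher and 2 lower in Il10ra_mKO. Both mutant arrays lay above all controls for 3 of them (8.92% of all genes) and below for 1 (8.50%). Follicular dendritic cell markers were at 5.97 to 6.06 in WT_resident and at 5.77 and 6.22 in Il10ra_mKO, but the list did not move as one. Of its 5 measured genes 2 were higher and 3 lower. Cr2 and Fcer2a, which B cells also make, were dim and reached 6.33 and 6.22 in Il10ra_mKO array 2. Prnp and Mfge8, the 2 past the brightness limit, had both mutant arrays below all controls. The differences were -0.72 ± 0.05 and -0.73 ± 0.15 (limma, adjusted p = 0.159 and 0.419). The part of either cell type in the Cxcl13 values was not tested. Of the 10 measured partners of Cxcl13 in lymphoid tissue, 9 were higher and 1 lower in Il10ra_mKO, with a median of 0.08, and 0 passed. Only 3 of the 10 were past the brightness limit. Lta and Il7, which support lymphoid tissue, differed by 0.08 ± 0.04 and -0.05 ± 0.03. Tnfsf13b, the B cell survival factor BAFF, was at 9.08, 9.04 and 9.48 in WT_resident and at 9.48 and 10.15 in Il10ra_mKO (difference 0.62 ± 0.28, adjusted p = 0.678).

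Cxcl14 was the steadiest gene on paper. It was at 5.63, 5.69 and 5.69 in WT_resident and at 5.60 and 5.69 in Il10ra_mKO, with the same value in WT_resident arrays 2 and 3 and Il10ra_mKO array 2. The difference was -0.02 ± 0.04 (adjusted p = 0.844, interval -0.15 to 0.10). Its interval is the narrowest of the 7, and the median residual SD was 0.052 among genes with tied values and 0.17 among the others. In the CX3CR1hi arrays Cxcl14 was at 6.23 in WT and 6.34 in Il10_KO, a difference of 0.11 ± 0.07 (adjusted p = 0.446).

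**Figure D2:**
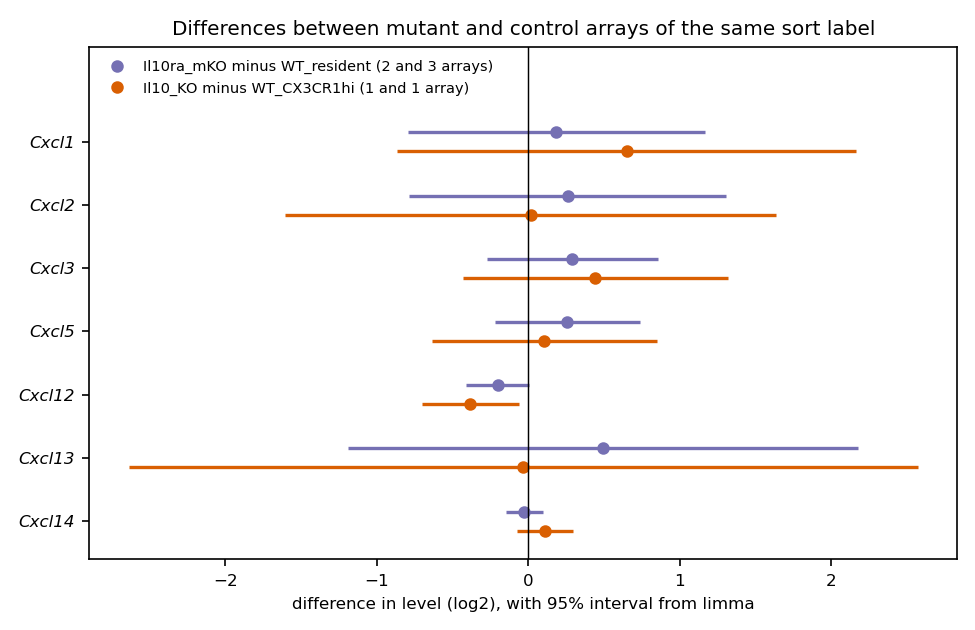
Difference in level (log2, horizontal axis) between mutant and control arrays of the same sort label for each chemokine, with 95% intervals from limma. Every interval for Il10ra_mKO includes 0, the widest being that of Cxcl13 from -1.19 to 2.17, and of the Il10_KO intervals only that of Cxcl12 (-0.70 to -0.06) does not; these compare 1 array with 1, and their width comes from the spread of the resident arrays alone.

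The effects of both mutations were set against each other in the same fit. The difference of effects did not pass for any of the 7 (limma, adjusted p of 0.597 to 0.980), while 4.70% of all genes passed for it and 7.90% for Il10_KO against WT_CX3CR1hi. Most of those genes held tied values: 913 of the 937 called for the difference of effects and 1438 of the 1576 called for Il10_KO. Of all genes 60.4% held such values. Without WT_resident array 2 the count for the difference of effects was 0, without WT_resident array 3 it was 402, and without Il10ra_mKO array 1 or 2 it was 1829 or 2200. The largest estimate was that of Cxcl13, 0.53 ± 1.10, and next to it Cxcl1 at -0.46 ± 0.64. For both the error was larger than the estimate, so the data do not show the chemokines to respond differently to the 2 mutations, nor alike.

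Levels in the single WT_CX3CR1hi array were also set beside those of the 3 WT_resident arrays. Cxcl13 was 1.25 above their mean, Cxcl1 0.65 and Cxcl14 0.56 above it, and Cxcl3 was at -0.85 relative to it. Cxcl12 was at -0.23 and Cxcl2 0.13 relative to that mean. The CX3CR1hi array lay outside the range of the WT_resident arrays for 6 of the 7, all but Cxcl2, where 89.5% of all genes lay outside it (85.3% after median centring), so this count is near the background. With quantile normalization Cxcl13, Cxcl14 and Cxcl3 kept their sign (0.98, 0.50 and -0.72), Cxcl1 was at 0.34, and Cxcl5 changed from -0.25 to 0.13. The extraction protocol names one RNA kit for the first 2 samples and another for the rest, so sort label and kit cannot be told apart. Identical values occur almost only among the resident arrays, and whether both sort labels were summarised together is not stated, so levels across them may not share a scale. The upper quartile of all values also differed, at 7.93 to 8.01 for resident and 8.26 to 8.30 for CX3CR1hi arrays. No test was made.

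Cxcl5, Cxcl3, Cxcl1 and Cxcl2 sit in 1 cluster on mouse chromosome 5, in which the RefSeq gene table of GRCm38.p6 lists 7 genes in the order Cxcl5, Ppbp, Pf4, Cxcl3, Cxcl15, Cxcl1 and Cxcl2. Ppbp and Pf4 encode platelet chemokines. Pf4 was at 11.42, 11.50 and 11.07 in WT_resident and at 9.64 and 10.19 in Il10ra_mKO, 2.67-fold lower (difference -1.42 ± 0.24, adjusted p = 0.341). Ppbp was at 7.72, 7.62 and 7.31 in WT_resident and at 7.08 and 6.38 in Il10ra_mKO (difference -0.82 ± 0.27, adjusted p = 0.589). Both had mutant arrays below all controls, unlike Cxcl5, Cxcl3, Cxcl1 and Cxcl2, and neither passed over all genes. Ppbp also carries the Glu-Leu-Arg motif. The contrast between these genes was not tested. Among the 7901 genes without tied resident values Pf4 fell (limma, adjusted p = 0.0317) and Ppbp did not pass (adjusted p = 0.155). That fit was chosen after seeing the data, and its filter favours genes that vary over both groups. In the CX3CR1hi arrays Pf4 was 0.05 and Ppbp 0.07 higher in Il10_KO. Cxcl15 stayed between 4.87 and 4.95 in the resident arrays.

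**Figure D3:**
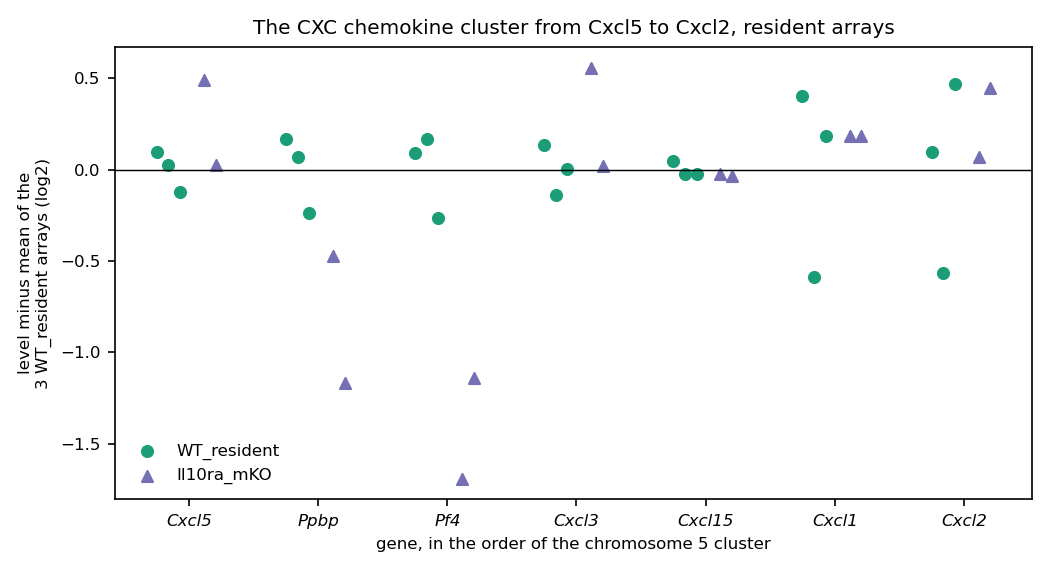
Level of the 7 genes of the chromosome 5 cluster in each resident array, minus the mean of the 3 WT_resident arrays (log2, vertical axis), in cluster order (horizontal axis). Circles are WT_resident arrays and triangles Il10ra_mKO arrays; the triangles sit below all circles for Ppbp and Pf4 and among or above them for Cxcl5, Cxcl3, Cxcl1 and Cxcl2.

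The other CXC chemokines measured include the interferon-induced ligands of Cxcr3. Of 6 genes, 4 were higher and 2 lower in Il10ra_mKO, with a median of 0.43 beside 0.00 over all genes. Both mutant arrays lay above all controls for 3 of them (8.92% of all genes). Cxcl9 was at 10.98, 11.18 and 11.69 in WT_resident and at 13.13 and 13.15 in Il10ra_mKO (difference 1.86 ± 0.25, limma, adjusted p = 0.258), so it did not pass over all genes. It passed in the fit among genes without tied values, chosen after seeing the data (limma, adjusted p = 0.0150). Its results under the other alternatives are not given here. Cxcl16 was at 12.12, 11.95 and 12.46 in WT_resident and at 12.24 and 12.43 in Il10ra_mKO, inside the control range. The neutrophil attractants and Cxcl9 thus had different patterns over the same arrays, a difference that was not itself tested.

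The receptors for these ligands gave no called change. Of 9 receptor genes measured, 4 were higher and 5 lower in Il10ra_mKO, with a median of -0.07, and 3 were past the brightness limit. Cxcr4, the receptor for Cxcl12, was at 11.30, 10.87 and 11.87 in WT_resident and at 11.28 and 11.69 in Il10ra_mKO. Cxcr2, the neutrophil receptor for Cxcl1, Cxcl2, Cxcl3 and Cxcl5, was at 4.92, 4.84 and 4.78 in WT_resident and at 5.17 and 4.95 in Il10ra_mKO, all under the limit (difference 0.21 ± 0.09, adjusted p = 0.678). Ackr3, a scavenger of Cxcl12, was at 5.18, 5.14 and 5.16 in WT_resident and at 4.88 and 4.97 in Il10ra_mKO (difference -0.24 ± 0.03, adjusted p = 0.287). Cxcr3 was at 6.76, 6.86 and 6.86 in WT_resident and at 6.52 and 6.88 in Il10ra_mKO. Cxcr1, Cxcr5, Cxcr6, Ackr1 and Ackr2 differed by -0.08, 0.09, 0.43, -0.16 and -0.07 on the log2 scale.

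Signals that switch on the neutrophil-attracting genes were higher for some members. Of 14 measured inducers 10 were higher and 4 lower in Il10ra_mKO, with a median of 0.21. Both mutant arrays lay above all controls for 6 of them (8.92% of all genes), and 0 passed over all genes. Il1a, which encodes the alarmin IL-1 alpha, was at 10.77, 9.87 and 10.95 in WT_resident and at 12.14 and 11.87 in Il10ra_mKO (difference 1.47 ± 0.39, adjusted p = 0.493). Il1b, the other IL-1 agonist, was at 12.23, 11.90 and 12.78 in WT_resident and at 13.02 and 12.78 in Il10ra_mKO. The mutant arrays were above the controls for both IL-1 genes, by very little in 1 array for Il1b, while Cxcl1 and Cxcl2 overlapped. Il1rap, the shared receptor chain for IL-1, differed by -0.17 ± 0.08.

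Estimates for granulocyte factors differed widely. All 5 measured genes were higher in Il10ra_mKO, from 0.009 for Csf3 and 0.06 for Csf2 to 2.21 for Il23a, and 2 were past the brightness limit. The median of 1.07 was that of Csf3r, which is also among the neutrophil markers above. Il23a, an upstream inducer of IL-17, was at 5.75, 5.14 and 5.80 in WT_resident and at 7.70 and 7.85 in Il10ra_mKO (difference 2.21 ± 0.25, limma, adjusted p = 0.243). It did not pass over all genes, and did so among genes without tied values, a fit chosen after seeing the data (adjusted p = 0.0112). Csf3r, the receptor for the neutrophil growth factor G-CSF, was at 8.98, 8.33 and 8.92 in WT_resident and at 9.60 and 10.01 in Il10ra_mKO, a difference of 1.07 ± 0.28. The growth factor gene itself, Csf3, was at 4.63 to 4.65 in all 5 resident arrays. Csf2 and Csf3 lay under the brightness limit and hold tied values.

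Genes that set how long chemokine messages and proteins last went both ways. Of 7 regulators of message decay 6 were higher and 1 lower, with a median of 0.12 and 0 called. Zfp36, tristetraprolin, which speeds decay of chemokine messages, was at 11.97, 11.52 and 11.89 in WT_resident and at 11.75 and 12.08 in Il10ra_mKO. Zfp36l1 and Elavl1 differed by 0.36 ± 0.18 and -0.05 ± 0.11. Of 12 genes for cleavage and capture 6 were higher and 6 lower, from -0.88 for Mmp9 to 0.93 for Mmp14, with a median of 0.00 and 0 called. Mmp14, a membrane protease that can cut Cxcl12, was at 9.59, 9.33 and 9.86 in WT_resident and at 10.55 and 10.51 in Il10ra_mKO (difference 0.93 ± 0.18, adjusted p = 0.381). Dpp4, a peptidase that inactivates Cxcl12, was at 8.53, 8.63 and 8.75 in WT_resident and at 8.24 and 8.39 in Il10ra_mKO (difference -0.32 ± 0.10, adjusted p = 0.540). Both groups were apart for these proteases, in opposite directions, without passing. Sdc4, a heparan sulfate proteoglycan, differed by 0.06 ± 0.14.

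For Cxcl1 and Cxcl2 the resident arrays ranged over 0.99 and 1.04, more than the estimated differences of 0.19 and 0.26. Cxcl1, Cxcl2 and Cxcl3 were each lowest in WT_resident array 2. Of the 14 inducers 8 (57.1%) had their lowest resident value there too, among them Il1a, Il1b, Tnf and Nfkbiz. The share was 14.0% of all genes and 17.3% of those past the brightness limit. Over the other lists it ran from 0% for epithelial markers to 50% for dendritic cell markers and 60% for the lymphoid tissue partners of Cxcl13. A high share was thus not particular to the inducers. Tnf was at 10.73, 9.85 and 10.52 in WT_resident and at 10.63 and 10.96 in Il10ra_mKO. This array was picked out after its values were seen, and what sets it apart was not tested.

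The genes nearest to Cxcl2 were sought among 9937 genes, those past the brightness limit without predicted and clone-named genes, small RNAs, antigen receptor segments and receptors for odours or pheromones, by the root mean square difference of log2 values centred within each sort label over the 7 arrays. They were Cd86, a costimulatory ligand, at 0.08, Cxcr4 at 0.09 and the transcription factor gene Mafk at 0.10, where the median candidate was at 0.32. Cd86 was at 10.29, 9.57 and 10.51 in WT_resident and at 10.29 and 10.71 in Il10ra_mKO, with its lowest value in the same array as Cxcl2. Mafk, at 7.81, 7.33 and 8.06 in WT_resident, also had its lowest value there. These genes were picked for their nearness to Cxcl2, so a shared lowest array follows from the choice. The nearest genes to Cxcl13 were further off, at 0.29 for the complement gene C4b, 0.31 for Kmt2d and 0.31 for Ifnb1, against a median of 0.55. Cxcl1, Cxcl3, Cxcl5, Cxcl12 and Cxcl14 spread over less than 1 log2 unit in the resident arrays, so no neighbours were sought for them.

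**Figure D4:**
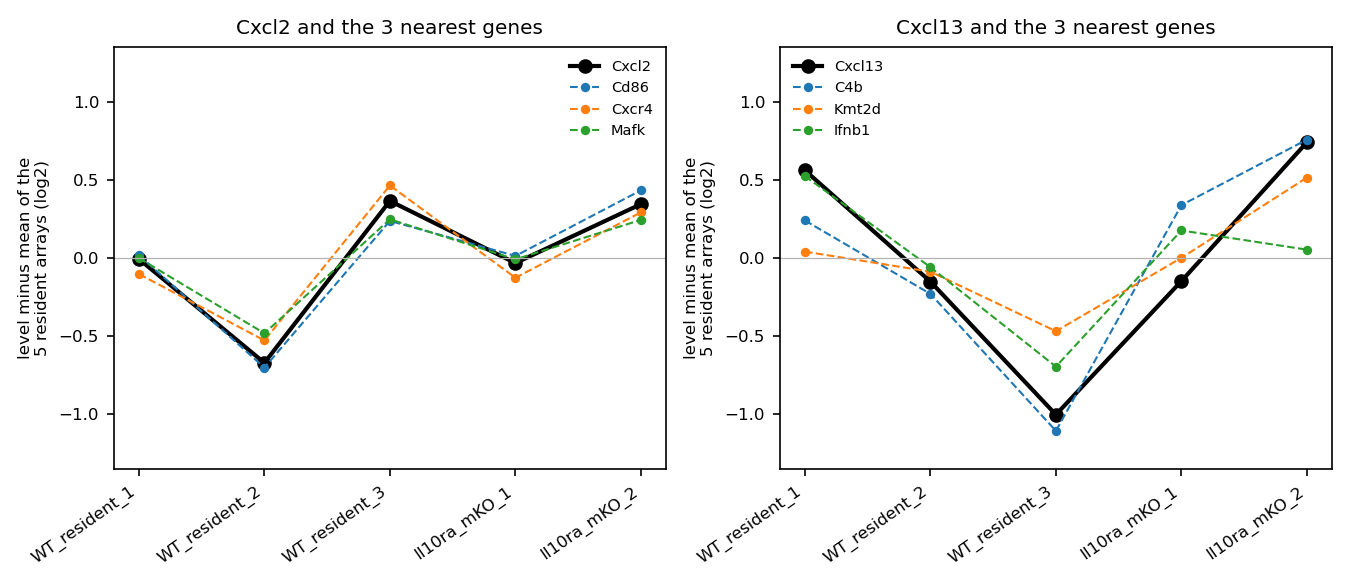
Level minus the mean of the 5 resident arrays (log2, vertical axis) by array (horizontal axis) for Cxcl2 and Cxcl13 with their 3 nearest genes each; lines only join the values of 1 gene. Cxcl2, Cd86, Cxcr4 and Mafk all have their lowest value in WT_resident array 2, which follows from picking genes near Cxcl2. Cxcl13 has its lowest, 8.39, in WT_resident array 3.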

How the data were processed

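Total RNA of the sorted cells was hybridised, labelled with biotin, to 7 Affymetrix arrays. The authors deposited log2 values, from 3.55 to 14.8. RMA and Partek are named in the submitters' processing notes; neither a version nor a build nor which arrays were summarised together is stated there. RMA pulls low values together, so folds of dim genes are understated, and probe sets of close paralogues such as Cxcl1, Cxcl2 and Cxcl3 can share signal. The number of arrays limits the precision. The extraction protocol names different RNA kits for the first 2 samples and the others.

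Of 35399 rows, 21789 carry exactly 1 symbol in the platform annotation. The brightest row per gene was kept, which left 19938 genes. Groups came from the source names, and replicate numbers follow accession order. limma 3.58.1 in R 4.3.3 was fitted to all 7 arrays with 1 mean per group and a variance trend (3 residual degrees of freedom, prior 0.831), two-sided, with Benjamini-Hochberg adjustment over all genes. The script was checked on data with known changes. The 7 genes, the gene and marker lists and the rule for named genes (all 7 and their cluster neighbours; from each gene list its brightest gene and that with the smallest p in each direction; all receptors; the leading markers; the 3 nearest genes) were chosen with earlier results of these data known. Dcn, Lum, Tnf, Nfkbiz, Csf2, Csf3, Mmp9, Prnp, Mfge8, Vcan, F10, Clec9a and Ccr7 were named after their values were seen. Alternatives were other filters, normalizations, priors, rows per gene and reference arrays, and leaving out each array. Promoter windows came from RefSeq, GRCm38.p6.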

Additional observations from a re-analysis of the deposited data

How the results depend on the processing

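No chemokine passed in any comparison under any alternative that could be fitted (adjusted p of 0.294 to 1.0 over 108 values for Il10ra_mKO, 0.172 to 0.997 over 59 for Il10_KO and 0.266 to 1.0 over 87 for the difference of effects), and 105, 55 and 83 of these values kept their sign. Alternatives that changed only the filter, the prior or the rows per gene could not move an estimate, since each chemokine has 1 probe set. Their signs were thus fixed in advance. For Il10ra_mKO, leaving out 1 array each gave -0.11 to 0.39 for Cxcl1, -0.023 to 0.49 for Cxcl2 and -0.071 to 0.021 for Cxcl14. For Il10_KO, Cxcl2 was at -0.0225 with median centring, and with all 4 WT arrays as the reference Cxcl3 was at -0.19, Cxcl5 at -0.081 and Cxcl13 at 0.91. For the difference of effects, Cxcl3 was at 0.016 with quantile normalization, and leaving out 1 array each gave -0.04 to 0.48 for Cxcl2, -0.42 to 0.12 for Cxcl3 and -0.080 to 0.38 for Cxcl5. The cause of these changes was not tested.

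The count of all genes called moved widely. For Il10ra_mKO against WT_resident it was 1, and it was 12 with the brightness filter, 4 without a variance trend, 138 with quantile normalization, 421 with median centring, 0 with the runs of sample numbers as a block, 70 with 4 WT arrays as the reference, 209 among genes without tied values, and 0 to 267 when 1 array was left out (0 without any 1 WT_resident array, 266 and 267 without Il10ra_mKO array 1 or 2, the lone array then assumed to vary like the others). For Il10_KO it was 1576, and under these settings 2, 758, 17, 129, 0 (4 WT arrays) and 0 (no ties), with 1043 for robust eBayes. For the difference of effects it was 937, and 1, 30, 387 (robust), 11, 20 and 0 (no ties), and 0 to 2200 when 1 array was left out. Chemokines not overlapping between Il10ra_mKO and WT_resident numbered 1, with 2 after median centring and 1 to 4 when 1 array was left out; of all genes 17.4% did not overlap, 17.4% after median centring and 20% to 49.2% when 1 array was left out. The fit among genes without tied values was chosen after seeing the data.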

Other observations

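Exact ties shape which genes can be called in this table. Of 19938 genes, 60.4% hold at least 2 identical values among the 5 resident arrays, 844 have no spread within any group, and the median residual SD is 0.052 among tied genes and 0.17 among the others. Among the 7901 genes without ties, 108 were called higher and 101 lower in Il10ra_mKO (2.65%), beside 0 and 1 over all genes, and Il10ra fell (adjusted p = 0.0103). Requiring 5 distinct values also selects for genes that vary, since the ties are counted over both groups. For Il10_KO against WT_CX3CR1hi, 1576 genes were called over all genes and 0 among those without ties.

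Of the 107 genes without ties that are on a list or check the labels, 9 were called in that fit. They were Cxcl9, Il23a, the dendritic cell genes Clec9a and Ccr7, and F10, which rose, and Pf4, the matrix genes Dcn and Lum, and Il10ra, which fell. Cxcl2, Cxcl3, Cxcl12 and Cxcl13 were fitted there and did not pass (adjusted p of 0.439 to 0.758).

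The remaining marker lists were read in the same way. For Il10ra_mKO, 4 of 6 monocyte markers were higher and 2 lower, with a mean level of 6.85 to 7.16 in WT_resident and of 7.78 and 7.47 in Il10ra_mKO, but the median difference was 0.06. F10, one of these markers, stood apart at 3.12 ± 0.21, while Ccr2 was at 0.10 and Vcan at -0.25. Of 8 dendritic cell markers 6 were higher and 1 lower, with a mean of 6.75 to 7.05 in WT_resident and of 7.59 and 7.80 in Il10ra_mKO. All 7 T cell and ILC markers measured were higher, by a median of 0.13, and mast cell and eosinophil markers had a median of 0.02. By list, 4 of the 6 chemokines with the Glu-Leu-Arg motif were higher and 2 lower (median 0.22), and 1 of the 3 homeostatic ones was higher and 2 lower (median -0.03).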
